A study of Mus musculus with 45 samples.

Results

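The genes that write, hold and erase the Polycomb marks were followed through fully grown oocytes (FGOs) and late two-cell embryos of the mouse. The set held 10 of the 26214 genes in the deposited expression table, chosen by symbol: Ezh1, Ezh2, Eed and Suz12 of Polycomb repressive complex 2 (PRC2), Rnf2, Ring1, Pcgf1 and Pcgf6 of Polycomb repressive complex 1 (PRC1), and the H3K27 demethylases Kdm6a and Kdm6b. The study asked how loss of H3K36me2, dimethylation of lysine 36 of histone H3, caused by H3.3 with a lysine-to-methionine change at K36 (H3.3K36M), alters the oocyte's DNA methylation, other histone marks and transcripts.

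RNA was sequenced from 3 control and 3 K36M FGO libraries, each a pool of oocytes, and from 8 control and 8 K36M oocyte-derived late two-cell embryos, each a single embryo. Control FGOs came from H3f3b K36M-flox/+ females and K36M FGOs from H3f3b K36M-flox/+; Gdf9-Cre females, in which the oocyte-specific Gdf9 promoter drives Cre and turns on HA-tagged H3.3K36M from 1 allele of H3f3b. Both groups therefore carried the floxed allele, and they differed in Cre as well as in the histone. The FGOs were collected from ovaries of hybrid C57BL/6 / 129 females at 3 to 4 weeks of age. The embryos came from superovulated females whose eggs were fertilized in vitro with JF-1 sperm (strain label hybrid C57BL/6 / 129 X JF-1), and they were harvested 31 to 32 h after fertilization. A K36M oocyte gives embryos with or without the mutant allele, and the labels record neither the genotype nor the sex of an embryo. Control two-cell replicate 4, marked as excluded in the table, was left out, so 21 libraries were used.

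PRC2 places methyl groups on lysine 27 of histone H3 through Ezh2 or its paralogue Ezh1, with Eed and Suz12 as core subunits that the enzyme needs. PRC1 attaches ubiquitin to histone H2A through Rnf2 (RING1B) or Ring1 (RING1A), and the PCGF subunit bound to them sets the kind of complex, Pcgf1 and Pcgf6 belonging to variant PRC1. Kdm6a (UTX) and Kdm6b (JMJD3) remove H3K27 methylation. In mouse oocytes H3K27me3 covers broad domains away from H3K36 methylation, some of which are handed to the embryo and silence maternal alleles there.

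The members lie on 7 chromosomes. In GRCm38.p6, Suz12 is at chr11:79993106-80034123, Ezh1 at chr11:101191115-101226463 and Kdm6b at chr11:69398508-69420367, far apart on chromosome 11. Ezh2 is at chr6:47530274-47595270 and Pcgf1 at chr6:83077552-83080855. The other positions are Eed at chr7:89954654-89980976, Rnf2 at chr1:151469398-151500991, Ring1 at chr17:34020792-34024680, Pcgf6 at chr19:47033617-47050939 and, on the X chromosome, Kdm6a at chrX:18160862-18279936. Exons of other genes overlapped 62 exonic bases of Ezh2 (1.94% of its exonic length, F830010H11Rik) and 147 of Kdm6b (1.47%, Gm51903), both on the opposite strand, and those of no other member.

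The promoters of Ezh2 and Suz12 are shown because they hold an E2F word, and those of Rnf2 and Ring1 because the levels of these PRC1 paralogues differed most. The windows are RefSeq's, in GRCm38.p6, from 250 bases before to 50 after the annotated start, and 8 of the 10 members had one. In the first pair the capitals mark an E2F word, TTTCCCGC or TTTGGCGC on either strand. E2F factors are known regulators of cell cycle genes and of Ezh2. The Ezh2 window is chr6:47594981-47595280 on the minus strand and the Suz12 window is chr11:79992856-79993155 on the plus strand. The start behind the Ezh2 window lies within the gene span given above rather than at its upstream end.
Ezh2 promoter: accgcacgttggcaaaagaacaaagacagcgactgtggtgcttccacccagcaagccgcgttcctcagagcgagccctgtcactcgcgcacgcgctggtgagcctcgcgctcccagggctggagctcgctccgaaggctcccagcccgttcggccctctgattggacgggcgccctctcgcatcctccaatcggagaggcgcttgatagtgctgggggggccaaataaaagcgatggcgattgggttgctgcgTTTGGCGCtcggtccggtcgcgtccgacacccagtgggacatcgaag
Suz12 promoter: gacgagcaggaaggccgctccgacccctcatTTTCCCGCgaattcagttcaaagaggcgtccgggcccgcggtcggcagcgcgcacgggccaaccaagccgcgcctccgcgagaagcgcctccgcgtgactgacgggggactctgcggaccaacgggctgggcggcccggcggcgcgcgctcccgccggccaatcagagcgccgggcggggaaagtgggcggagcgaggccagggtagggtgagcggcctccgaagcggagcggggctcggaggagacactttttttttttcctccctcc
These words stood in 2 of the 8 member promoters and not in those of Eed and Ezh1, the other PRC2 members, and in 1.565% of 32851 promoters of the same length. In the second pair the capitals mark CG dinucleotides, the sites of DNA methylation in mammals. The Rnf2 window is chr1:151500942-151501241 and the Ring1 window is chr17:34024631-34024930, both on the minus strand.
Rnf2 promoter: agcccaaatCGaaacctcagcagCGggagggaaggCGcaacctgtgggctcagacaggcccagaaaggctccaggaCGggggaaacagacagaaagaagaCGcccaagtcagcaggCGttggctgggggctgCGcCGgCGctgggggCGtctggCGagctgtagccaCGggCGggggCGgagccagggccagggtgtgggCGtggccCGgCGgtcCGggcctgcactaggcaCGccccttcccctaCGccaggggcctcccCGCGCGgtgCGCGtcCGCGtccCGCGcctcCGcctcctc
Ring1 promoter: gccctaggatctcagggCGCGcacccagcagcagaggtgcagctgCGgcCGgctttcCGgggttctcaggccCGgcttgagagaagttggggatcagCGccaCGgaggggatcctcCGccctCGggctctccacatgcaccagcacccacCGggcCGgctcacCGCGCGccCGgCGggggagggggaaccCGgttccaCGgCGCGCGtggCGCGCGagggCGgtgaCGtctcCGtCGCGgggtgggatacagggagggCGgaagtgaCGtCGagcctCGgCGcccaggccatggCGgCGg
Rnf2 held 30 CG dinucleotides and Ring1 held 37, against a median of 7 over all promoters, and 11.68% and 5.583% of all promoters held as many. Both starts are thus rich in CG, while only Rnf2 RNA was abundant in these cells. A word in a promoter is a description and shows no binding.

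Levels were given as TPM, which scales reads to gene length and to the library's sum so that genes can be set beside each other within a library. Each library summed to 1000000, and the reads behind each value are not known here. The study lists total reads per library, and every embryo library had fewer than every FGO library. TPM is a share of a library's RNA, so a fall of one transcript and a rise of the rest cannot be told apart, nor, in pooled FGOs, fewer cells with a transcript and less of it per cell. Genes at a TPM of at least 1 numbered 13218 to 14131 in the FGO libraries and 9722 to 15557 in the embryos. The 9 oocyte markers (the zona and growth factor genes among them) summed to 19726 to 20204 TPM in control FGOs, 17063 to 18381 in K36M FGOs and 772 to 2241 in embryos, and all 9 were called lower in embryos of either background. Of 7 two-cell markers, 6 were called higher. The 12 granulosa and cumulus markers summed to 119 to 135 TPM in control and 126 to 196 in K36M FGOs, with Ptx3 at 0 in the control and Tnfaip6 at 0 in the K36M libraries. Most of that sum was Nr5a2, at 67.1 to 77.1 TPM in control and 72.6 to 141 in K36M FGOs (0.66 ± 0.23, limma unadjusted p = 0.0194, adjusted p = 0.415), and Cyp19a1, at 18.5 to 31.0 TPM over both groups. Stroma and blood markers summed to 57.3 to 69.7 TPM, nearly all of it Pecam1 (53.0 to 65.7 TPM), with Hba-a1 at 0 in all 6. The part of these markers in differences between FGO groups was not tested. H3f3b was 265 to 308 TPM in control and 377 to 418 TPM in K36M FGOs, a value that sums both alleles and so does not check the label.

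In control FGOs, Ezh2 was the most abundant member at 717 ± 25.4 TPM (mean ± SD, n = 3), rank 159 of all genes. Suz12 followed at 537 ± 9.13 TPM, Pcgf1 at 394 ± 7.81, Kdm6b at 292 ± 33.4, Eed at 281 ± 12.6, Pcgf6 at 189 ± 5.63, Rnf2 at 184 ± 8.13, Kdm6a at 169 ± 0.190 and Ezh1 at 63.5 ± 3.74 TPM. Ring1 was at 1.95 ± 1.10 TPM, rank 12437. Neighbours in this order did not overlap in the 3 libraries, except Kdm6b with Eed and Pcgf6 with Rnf2. In K36M FGOs the order was the same but for the neighbours Pcgf1 and Suz12, and Rnf2 and Pcgf6, which changed places and overlapped.

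In control two-cell embryos Suz12 led at 1038 ± 188 TPM (n = 7), rank 48 of all genes, and its lowest embryo was above the highest value of the next member. Ezh2 came next at 390 ± 105 TPM, above Rnf2 (238 ± 41.3 TPM) in 6 of 7 embryos. Kdm6b, Pcgf6, Pcgf1 and Eed lay between 126 and 169 TPM and their order varied from embryo to embryo. Kdm6a (75.0 ± 38.4 TPM) and Ezh1 (71.2 ± 32.9 TPM) did not differ beyond their spread, and Ring1 was last at 6.02 ± 10.5 TPM. In K36M oocyte-derived embryos Suz12 (958 ± 118 TPM, n = 8), Ezh2 (498 ± 159) and Rnf2 (266 ± 68.4) again led, and Ring1 was again last at 0.647 ± 1.34 TPM.

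Single embryos varied far more than pooled FGOs. Leaving out Ring1, the coefficient of variation of a member (SD over mean) had a median of 3.55% in control FGOs and 7.98% in K36M FGOs, but 41.0% in control and 41.7% in K36M oocyte-derived embryos. Suz12 was the steadiest member among K36M oocyte-derived embryos (12.3%) and Rnf2 among control embryos (17.4%), where Suz12 stood at 18.1%.

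**Figure D1:**
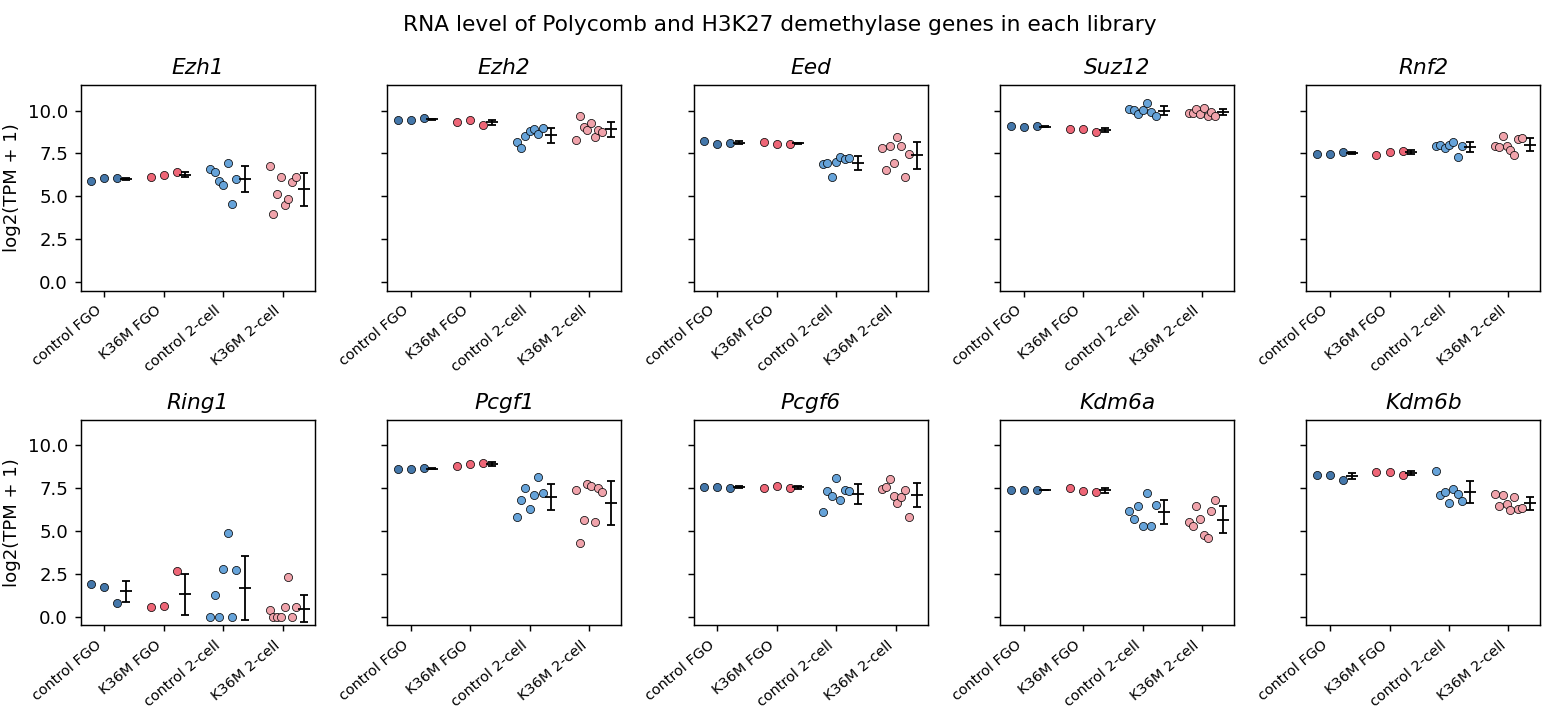
RNA level of each member as log2(TPM + 1) on the y axis, with the 4 groups on the x axis, 1 point per library (3, 3, 7 and 8) and the mean with its SD beside the points. Suz12 lies higher and Kdm6a, Pcgf1 and, but for 1 control embryo, Kdm6b lie lower in embryos than in FGOs, and Ring1 is near 0 in most libraries.

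The passage from oocyte to two-cell embryo was compared within each background by limma, which fits all genes at once and moderates their errors, on log2(TPM + 1) over 17358 genes in 1 model of the 21 libraries. That model gives a gene the same error for both stages, although single embryos varied far more than pooled FGOs. In control material Suz12 rose, and Ezh2, Eed, Pcgf1, Kdm6a and Kdm6b fell, at an adjusted p under 0.05. These 6 calls among 10 members stand beside 26.6% of all genes called in this comparison (13.4% higher, 13.2% lower). Without control FGO replicate 1, 2 or 3 the members called were 2, beside 16.4% to 16.6% of all genes. The members' median difference stayed between -0.66 and -0.62 in these fits, which have fewer libraries in that group. In K36M material 4 members were called, Suz12 higher and Pcgf1, Kdm6a and Kdm6b lower, beside 29.3% of all genes (10.8% higher, 18.6% lower). The members' median difference was -0.66 on the log2 scale in control and -0.76 in K36M material, where the median of all genes tested was 0.0017 and -0.18. With a pseudocount of 0.1 the members' medians were -0.84 and -0.79, and those of all genes -0.16 and -0.59. Without the mean-variance trend only the Suz12 call remained in control material (1 of 10 members), beside 25.7% of all genes. Stage goes together with single against pooled material, fewer total reads, more amplification cycles, superovulation and the JF-1 sire, and these cannot be told apart.

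Groups that did not overlap between stages numbered 5 of 10 members in control material (Suz12 higher, Ezh2, Eed, Pcgf1 and Kdm6a lower), beside 32.3% of all genes (14.1% higher, 18.2% lower), and 4 of 10 in K36M material (Suz12 higher, Pcgf1, Kdm6a and Kdm6b lower), beside 26.2% (9.04% higher, 17.2% lower).

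Suz12, the PRC2 subunit that holds the complex together, read 541, 527 and 543 TPM in control FGOs and 480, 489 and 435 TPM in K36M FGOs. Control embryos ranged from 814 to 1397 TPM with a median of 1035, and K36M oocyte-derived embryos from 815 to 1153 TPM with a median of 942. Every embryo was above every FGO library. The rise was 0.93 ± 0.15 (SE) on the log2 scale in control material (1.91-fold, adjusted p = 6.92e-05) and 1.02 ± 0.15 in K36M material (2.03-fold, adjusted p = 1.45e-05), by limma with Benjamini-Hochberg adjustment. Both calls held under each of the 32 alternatives run.

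Ezh2, the main H3K27 methyltransferase, read 696, 711 and 745 TPM in control FGOs and 637, 691 and 578 TPM in K36M FGOs. It ranged from 225 to 513 TPM in control embryos (median 400) and from 316 to 815 TPM in K36M oocyte-derived embryos (median 471). All control embryos were below the control FGOs, while the highest K36M oocyte-derived embryo was above all K36M FGO libraries. Ezh2 fell by 0.93 ± 0.26 on the log2 scale in control material (1.90-fold lower, limma adjusted p = 0.00974), a call lost without the mean-variance trend (adjusted p = 0.0646). In K36M material the difference was -0.41 ± 0.25 with an adjusted p of 0.251 (95% confidence interval -0.93 to 0.12).

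Eed, the subunit that binds H3K27me3 and stimulates the enzyme, read 293, 268 and 281 TPM in control FGOs and 281, 269 and 267 TPM in K36M FGOs. Control embryos held 68.6 to 155 TPM (median 129), all below the FGOs, and K36M oocyte-derived embryos 68.0 to 345 TPM (median 199), reaching above them. The difference in control material was -1.19 ± 0.38 on the log2 scale (2.27-fold lower, limma adjusted p = 0.0238), and in K36M material -0.70 ± 0.38 (adjusted p = 0.175). The control call was lost when control FGO replicate 1, 2 or 3 was left out, with an adjusted p of 0.0720 to 0.0901 and a difference of -1.22 to -1.15, and without the trend (0.0555).

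Ezh1, the weaker PRC2 enzyme, had no stage call in the unweighted model. It read 59.2, 65.6 and 65.7 TPM in control FGOs and 69.2, 75.9 and 84.0 TPM in K36M FGOs, and ranged from 22.4 to 124 TPM in control and from 14.5 to 109 TPM in K36M oocyte-derived embryos, on both sides of the FGO values. The differences were 0.0055 ± 0.54 in control (limma adjusted p = 1.00) and -0.85 ± 0.53 in K36M material (adjusted p = 0.247). In K36M material it was called lower with array weights (-0.81, adjusted p = 0.0324) and with 1 weight per stage (-0.85, adjusted p = 0.0290), fits that called 49.1% and 50.4% of all genes.

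Within PRC1, the catalytic subunit Rnf2 had no stage call in the unweighted model and its paralogue Ring1 was scarce throughout. Rnf2 read 180, 179 and 193 TPM in control FGOs and 172, 195 and 203 TPM in K36M FGOs. It ranged from 154 to 288 TPM in control embryos (median 247) and from 171 to 368 TPM in K36M oocyte-derived embryos (median 244), so the groups overlapped. The stage differences were 0.35 ± 0.25 in control (95% confidence interval -0.17 to 0.86, limma adjusted p = 0.323) and 0.45 ± 0.24 in K36M material (-0.056 to 0.95, adjusted p = 0.180). With array weights, which let noisier libraries count for less, Rnf2 was called higher in control (0.38, adjusted p = 0.0262 by limma) and in K36M material (0.43, adjusted p = 0.0319), and with 1 weight per stage in K36M material (0.45, adjusted p = 0.0267). Array weights called 56.1% of all genes in control and 49.1% in K36M material, and 1 weight per stage 50.4% in K36M material.

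Ring1 read 2.82, 2.32 and 0.721 TPM in control FGOs and 0.502, 0.527 and 5.49 TPM in K36M FGOs. It was listed at 0 in 3 of 7 control embryos and 4 of 8 K36M oocyte-derived embryos, with a highest value of 29.2 TPM in a control embryo and 3.92 TPM in a K36M oocyte-derived embryo. The groups overlapped, and the stage differences had wide intervals, -1.65 to 2.03 in control and -2.63 to 0.98 in K36M material, with limma adjusted p values of 0.910 and 0.532. The control difference of 0.19 turned to -0.76 with a pseudocount of 0.1.

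Pcgf1, the defining subunit of the variant complex that also holds Kdm2b and Bcor, read 386, 395 and 402 TPM in control FGOs and 437, 490 and 511 TPM in K36M FGOs. Control embryos ranged from 55.9 to 288 TPM (median 137) and K36M oocyte-derived embryos from 18.7 to 211 TPM (median 161). No embryo reached the lowest FGO library of its background. The difference was -1.64 ± 0.59 on the log2 scale in control material (3.11-fold lower, limma adjusted p = 0.0414) and -2.28 ± 0.58 in K36M material (4.86-fold lower, adjusted p = 0.00418). The control call was lost when any 1 of 8 libraries was left out (control FGO replicates 1, 2 and 3, K36M FGO replicates 2 and 3, control two-cell replicates 1, 2 and 5), with an adjusted p of up to 0.118. It was also lost with a pseudocount of 0.1 (adjusted p = 0.0504), without a filter (0.0715) and without the trend (0.0715). The K36M call held without each library in turn.

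Pcgf6, the subunit of the variant complex with Mga, Max and E2f6, read 192, 192 and 182 TPM in control FGOs and 179, 198 and 180 TPM in K36M FGOs. It ranged from 67.5 to 271 TPM in control embryos (median 160) and from 54.8 to 259 TPM in K36M oocyte-derived embryos (median 147), overlapping the FGOs in both. The differences were -0.40 ± 0.39 (95% confidence interval -1.21 to 0.40, limma adjusted p = 0.483) and -0.44 ± 0.38 (-1.23 to 0.36, adjusted p = 0.439).

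Both H3K27 demethylases fell. Kdm6a, an X-linked gene and a partner of the H3K4 methyltransferase complexes of Kmt2c and Kmt2d, read 169, 169 and 169 TPM in control FGOs and 184, 161 and 154 TPM in K36M FGOs. It ranged from 37.6 to 147 TPM in control embryos (median 72.5) and from 22.7 to 111 TPM in K36M oocyte-derived embryos (median 49.0), each below the FGOs of its background. Its difference was -1.31 ± 0.47 in control (2.48-fold lower, limma adjusted p = 0.0397) and -1.71 ± 0.46 in K36M material (3.28-fold lower, adjusted p = 0.00624). The control call was lost without any 1 of 7 libraries (control FGO replicates 1, 2 and 3, K36M FGO replicate 2, control two-cell replicates 2, 5 and 7), at an adjusted p of 0.0503 to 0.118, and was 0.0514 with control two-cell replicate 4 added and 0.0570 without the trend.

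Kdm6b read 309, 314 and 254 TPM in control FGOs and 342, 353 and 306 TPM in K36M FGOs. Of the control embryos, 1 was at 364 TPM, above the FGOs, and the others at 99.7 to 175 TPM, while K36M oocyte-derived embryos lay between 74.5 and 143 TPM (median 89.6), all below the FGOs. The difference was -0.91 ± 0.33 in control (1.88-fold lower, limma adjusted p = 0.0435) and -1.75 ± 0.32 in K36M material (3.36-fold lower, adjusted p = 0.000237). The control call was lost without any 1 of 11 libraries (all 6 FGO libraries and control two-cell replicates 2, 3, 5, 7 and 8), at an adjusted p of 0.0553 to 0.151, and also with the fit made on control libraries alone (0.0655) and without the trend (0.0921). The K36M calls of both demethylases held without each library in turn.

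**Figure D2:**
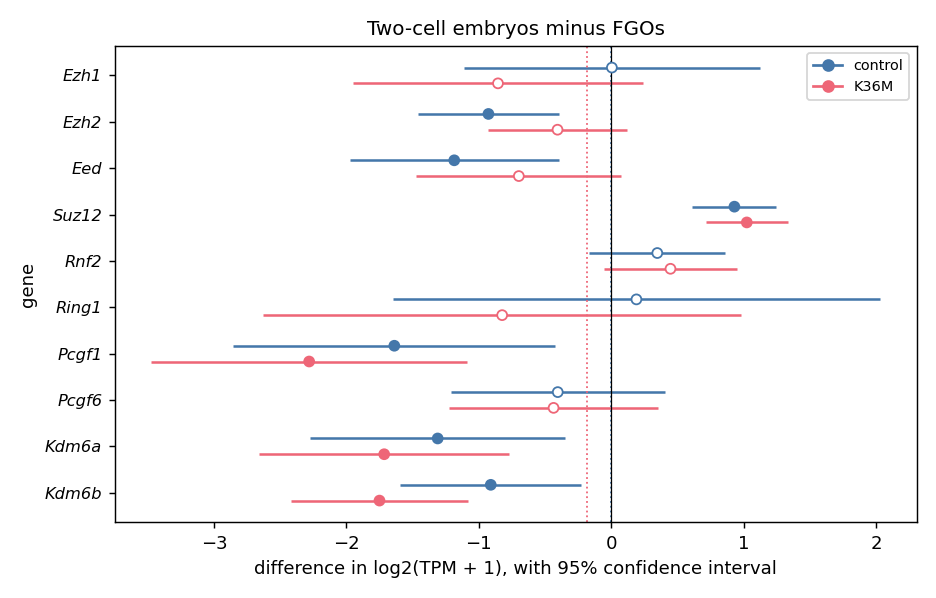
Difference of two-cell embryos minus FGOs in log2(TPM + 1) on the x axis for each member on the y axis, in control and K36M material, with the 95% confidence interval as a line, filled points for an adjusted p under 0.05 and dotted lines at the median of all genes tested. Suz12 lies near 1 in both backgrounds, and Pcgf1, Kdm6a and Kdm6b lie below 0 with filled points in both.

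Whether the passage between stages differed with the K36M background was tested by the genotype-by-stage interaction in the same model. No member was called (limma, smallest adjusted p = 1.00), 0 of 10 had an unadjusted p under 0.05, and the background was 0% of 17358 genes called, with 1.15% at an unadjusted p under 0.05. The error shared by both stages limits this test, and the lack of a call does not show that the passages were alike. With 1 weight per stage, 0 of 10 members were called, beside 0.0173% of all genes. The largest member values were -1.01 ± 1.25 for Ring1, -0.86 ± 0.76 for Ezh1 and -0.84 ± 0.46 for Kdm6b, beside a median of -0.27 over all genes. With single libraries left out, Ring1 ranged from -1.37 to -0.31, Ezh1 from -1.11 to -0.65 and Kdm6b from -0.94 to -0.64. Ezh2 and Eed were called in control material alone in the unweighted model, but in K36M material too with array weights (limma adjusted p = 0.0374 and 0.00929) and with 1 weight per stage (0.0412 and 0.0115), where 49.1% and 50.4% of all genes were called. Their calls are not shown to be particular to control material: their interaction values were 0.52 (95% confidence interval -0.23 to 1.27) and 0.49 (-0.62 to 1.59).

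Partner genes were then set beside each other within a library as ratios of TPM + 1, without a test. Where a gene is at or near 0 its ratio is set by the added 1. Ezh2 was above Ezh1 in all 21 libraries, by 10.7 to 11.6 times in control FGOs, 6.81 to 9.08 times in K36M FGOs, 2.64 to 17.2 times in control embryos and 2.89 to 52.8 times in K36M oocyte-derived embryos. The ranges of control and K36M FGOs did not overlap for this ratio, nor for Pcgf1 to Pcgf6 and Suz12 to Eed. They overlapped for Rnf2 to Ring1, Kdm6b to Kdm6a and Suz12 to Ezh2. Ezh1 and Ezh2 each had FGO groups that did not overlap, as had 15.6% of all genes, and the share over other gene pairs is not known. Rnf2 was above Ring1 in all 21 libraries.

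Suz12 and Ezh2, partners in 1 complex, changed order, a pair chosen for description after the values were seen. The Suz12 to Ezh2 ratio was 0.729 to 0.778 in control FGOs and 0.709 to 0.755 in K36M FGOs, below 1 in all 6 libraries. It was 1.59 to 4.58 in control embryos and 1.16 to 2.96 in K36M oocyte-derived embryos, above 1 in all 15. Suz12 to Eed, also chosen after the values were seen, was 1.84 to 1.96 in control FGOs and 5.41 to 12.7 in control embryos (median 8.51). It was 1.63 to 1.81 in K36M FGOs and 3.31 to 14.1 in K36M oocyte-derived embryos (median 4.63).

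Pcgf1 was above Pcgf6 in all 6 FGO libraries, with a median of 2.05 times in control and 2.47 times in K36M FGOs. In embryos Pcgf6 was the higher in 4 of 7 control and 4 of 8 K36M oocyte-derived embryos. Kdm6b was above Kdm6a in all 6 FGO libraries, in 7 of 7 control embryos and in 7 of 8 K36M oocyte-derived embryos.

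**Figure D3:**
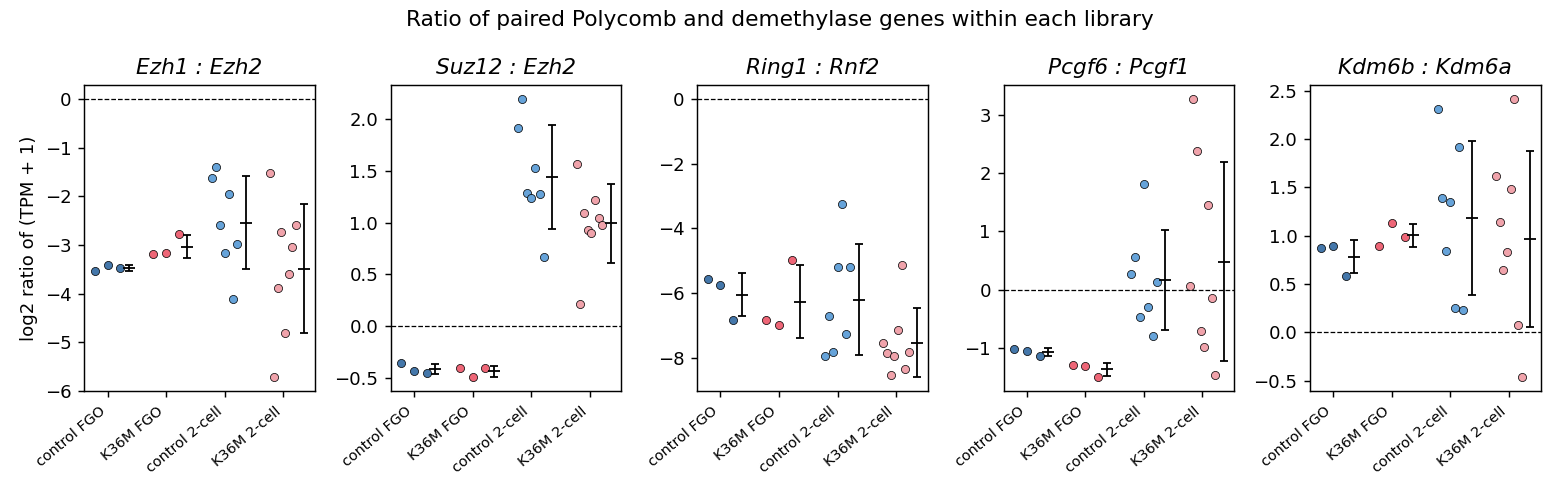
Log2 ratio of TPM + 1 of paired genes within each library on the y axis, with the 4 groups on the x axis, 1 point per library, the mean with its SD beside the points and a dashed line at equal levels. Suz12 to Ezh2 lies below the line in all 6 FGO libraries and above it in all 15 embryos, and Ezh1 to Ezh2 and Ring1 to Rnf2 lie below it throughout.

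The effect of the K36M background on the members was then compared within each stage. In FGOs no member was called by limma over 13775 genes (0 of 10, smallest adjusted p = 0.362), beside 0.00726% of all genes, and 2 of 10 had an unadjusted p under 0.05, beside 10.5%. The study tested read counts with edgeR and called more genes at each stage than were called here. Whether a member is among its calls is not given here. The control and K36M values did not overlap for 4 of 10 members, beside 15.6% of all genes (7.46% higher, 8.17% lower in K36M). The members' median difference was -0.026 and that of all genes 0.013. The summed oocyte markers were lower in each K36M FGO library than in each control library. Of these 9 markers 7 were lower and 1 higher without overlap, 6 of them lower and 1 higher at an unadjusted p under 0.05, and none was called by limma (smallest adjusted p = 0.306, median difference -0.19). Their part in the members' differences was not tested.

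Those 4 were Pcgf1 and Ezh1, higher in K36M FGOs, and Ezh2 and Suz12, lower. Pcgf1 differed by 0.28 ± 0.078 on the log2 scale (1.21-fold, limma adjusted p = 0.362), and was called only when K36M FGO replicate 1 was left out (0.34, adjusted p = 0.0475), which also raised the share of all genes called to 2.17%. Ezh1 differed by 0.26 ± 0.11 (adjusted p = 0.474), Suz12 by -0.20 ± 0.071 (adjusted p = 0.419) and Ezh2 by -0.18 ± 0.080 (adjusted p = 0.477). For the 5 other members besides Ring1 the 95% confidence intervals were narrow, from -0.21 to 0.13 for Eed to -0.040 to 0.43 for Kdm6b. That of Ring1 ran from -1.58 to 1.21.

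In two-cell embryos 0 of 10 members were called by limma over 17362 genes (smallest adjusted p = 0.646), beside 0% of all genes, and 0 of 10 had an unadjusted p under 0.05, beside 7.71%. Control and K36M oocyte-derived embryos overlapped for all 10 members, and 0.115% of all genes did not overlap (0.0230% higher, 0.0922% lower). Of all genes tested 63.8% were lower in K36M oocyte-derived embryos and their median was -0.26, while the members' median was -0.24. Genes at a TPM of at least 1 numbered 10774 to 15557 in control embryos (median 13011) and 9722 to 13303 in K36M oocyte-derived embryos (median 11559), and their part in these differences was not tested. Against that median the values of 5 members were above it, Rnf2, Ezh2, Eed, Suz12 and Pcgf6.

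Kdm6b had the smallest p, at -0.65 ± 0.32 (95% confidence interval -1.30 to 0.0042, adjusted p = 0.646 by limma). Eed stood at 0.45 ± 0.34 (-0.26 to 1.15), Ezh2 at 0.34 ± 0.23 (-0.14 to 0.83), Kdm6a at -0.43 ± 0.43 (-1.32 to 0.46) and Pcgf1 at -0.37 ± 0.49 (-1.38 to 0.65). The most negative value was that of Ring1, -1.20 ± 0.74 (-2.73 to 0.33, limma adjusted p = 0.692), and Ezh1 stood at -0.60 ± 0.48 (-1.58 to 0.38). With single libraries left out the Ring1 value ranged from -1.48 to -0.66. Suz12 had the narrowest interval, -0.41 to 0.20 around -0.11. These intervals were wider than those in FGOs, and differences within them were not detectable with 7 and 8 single embryos.

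**Figure D4:**
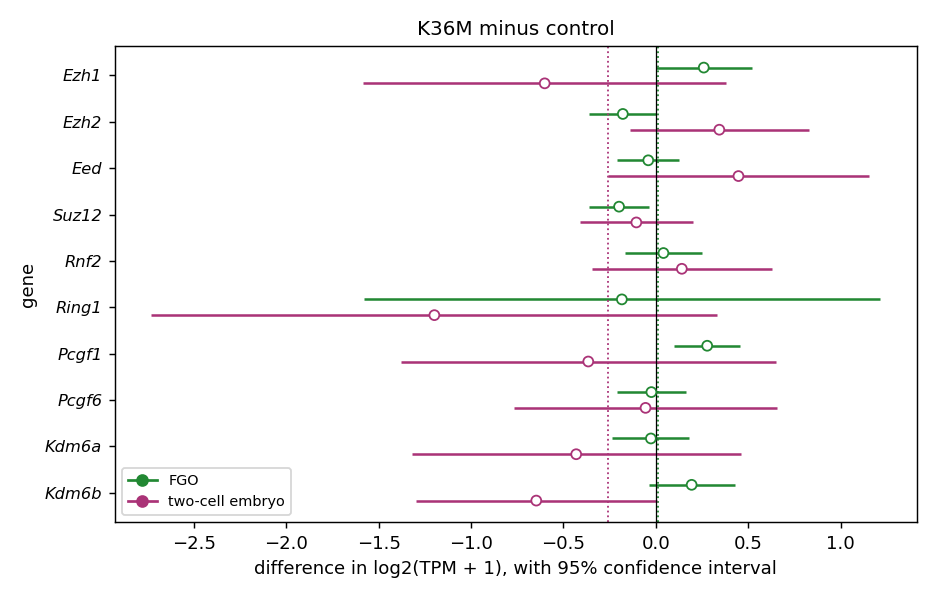
Difference of K36M minus control in log2(TPM + 1) on the x axis for each member on the y axis, in FGOs and two-cell embryos, with the 95% confidence interval as a line, open points for an adjusted p of 0.05 or more and dotted lines at the median of all genes tested. All 20 points are open, and the intervals in FGOs are the shorter for every member.

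The same comparisons were read for 47 other genes of the Polycomb system. By genotype none was called by limma, of 44 tested in FGOs (smallest adjusted p = 0.336, Cbx8 of canonical PRC1, 1.03 ± 0.27, 6 at an unadjusted p under 0.05, beside 10.5% of all genes) and of 47 in embryos (smallest adjusted p = 0.578, Pcgf2, -2.03 ± 0.82, 2 at an unadjusted p under 0.05, beside 7.71%). Between stages 15 were called higher and 6 lower in control material, beside 26.6% of all genes called, and 12 higher and 8 lower in K36M material, beside 29.3%. Their median difference was 0.70 in control and 0.18 in K36M material, where that of all genes was 0.0017 and -0.18.

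Of 11 PRC2 partners, 4 rose and 3 fell in control material, and 4 rose and 4 fell in K36M material. Ezhip, an inhibitor of PRC2 catalysis made in germ cells, read 1255 to 1507 TPM in control FGOs and 29.4 to 233 TPM in control embryos, and fell by 3.62 on the log2 scale (± 0.55, limma adjusted p = 2.32e-05) and by 3.93 in K36M material (adjusted p = 5.42e-06). Epop, a PRC2.1 subunit, rose by 5.72 ± 1.06 in control (adjusted p = 0.000265) and by 3.06 ± 1.04 in K36M material (adjusted p = 0.0283). Lcor rose by 1.97 ± 0.31 in control (adjusted p = 4.65e-05) and by 1.67 ± 0.31 in K36M material (adjusted p = 0.000228). Its paralogue Lcorl stood at -2.09 ± 0.75 (adjusted p = 0.0415) and -2.31 ± 0.74 (adjusted p = 0.0196). Rbbp7, a histone-binding subunit shared with other complexes, fell by 1.90 ± 0.34 in control (adjusted p = 0.000211) and by 1.71 ± 0.34 in K36M material (adjusted p = 0.000457).

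Of 10 canonical PRC1 partners, 3 rose and 2 fell in control and 1 rose and 2 fell in K36M material. The polyhomeotic genes Phc3 and Phc1 fell in both, by 3.18 and 1.49 in control (adjusted p = 0.00173 and 0.0238 by limma) and by 2.72 and 1.88 in K36M material. Of the PCGF subunits of canonical PRC1, Pcgf2 rose by 2.83 ± 0.88 in control material (adjusted p = 0.0192) and stood at 0.81 ± 0.86 in K36M material (adjusted p = 0.530). Bmi1, at 606 to 773 TPM in K36M FGOs and 1271 to 3343 TPM in K36M oocyte-derived embryos, rose by 1.67 ± 0.22 (adjusted p = 2.67e-06), and by 1.47 ± 0.22 in control material (adjusted p = 2.21e-05).

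Of 14 variant PRC1 partners, 4 rose and 1 fell in each background. Pcgf5 rose from 4.62 to 5.69 TPM in control FGOs to 28.2 to 74.2 TPM in control embryos, a difference of 3.33 ± 0.47 (limma adjusted p = 9.74e-06), and by 2.64 ± 0.46 in K36M material (adjusted p = 0.00012). Of the partners of Pcgf1, Bcor rose by 3.10 ± 0.64 in control and 2.93 ± 0.62 in K36M material, and Kdm2b, which carries a CG-binding domain, fell by 1.71 ± 0.28 (adjusted p = 7.34e-05) and 1.59 ± 0.28 (adjusted p = 0.000125). Mga, the partner of Pcgf6, rose by 1.20 ± 0.33 in control material (adjusted p = 0.00864) and by 1.25 ± 0.32 in K36M material (adjusted p = 0.00477), and Bcorl1 by 1.55 ± 0.58 in K36M material (adjusted p = 0.0472), beside 0.70 ± 0.59 in control (adjusted p = 0.410).

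Of 6 genes of H2A deubiquitination, Usp16, a deubiquitinase of H2A, rose from 222 to 247 TPM in control FGOs to 569 to 969 TPM in control embryos (1.66 ± 0.21, limma adjusted p = 1.79e-06), and by 2.10 ± 0.20 in K36M material (adjusted p = 3.33e-08). Asxl1, the cofactor of the deubiquitinase Bap1, fell by 1.17 ± 0.30 in K36M material (adjusted p = 0.00463) and stood at -0.68 ± 0.31 in control (adjusted p = 0.103). Of 6 genes listed with the demethylases, 3 rose in control and 2 in K36M material, and Ncoa6, a subunit of the Kmt2c and Kmt2d complexes, rose by 1.31 ± 0.24 and 1.32 ± 0.24 (adjusted p = 0.000239 and 0.000163). Uty, the Y-linked homologue of Kdm6a, was listed at 0 in all 6 FGO libraries, 3 of 7 control embryos and 4 of 8 K36M oocyte-derived embryos.

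**Figure D5:**
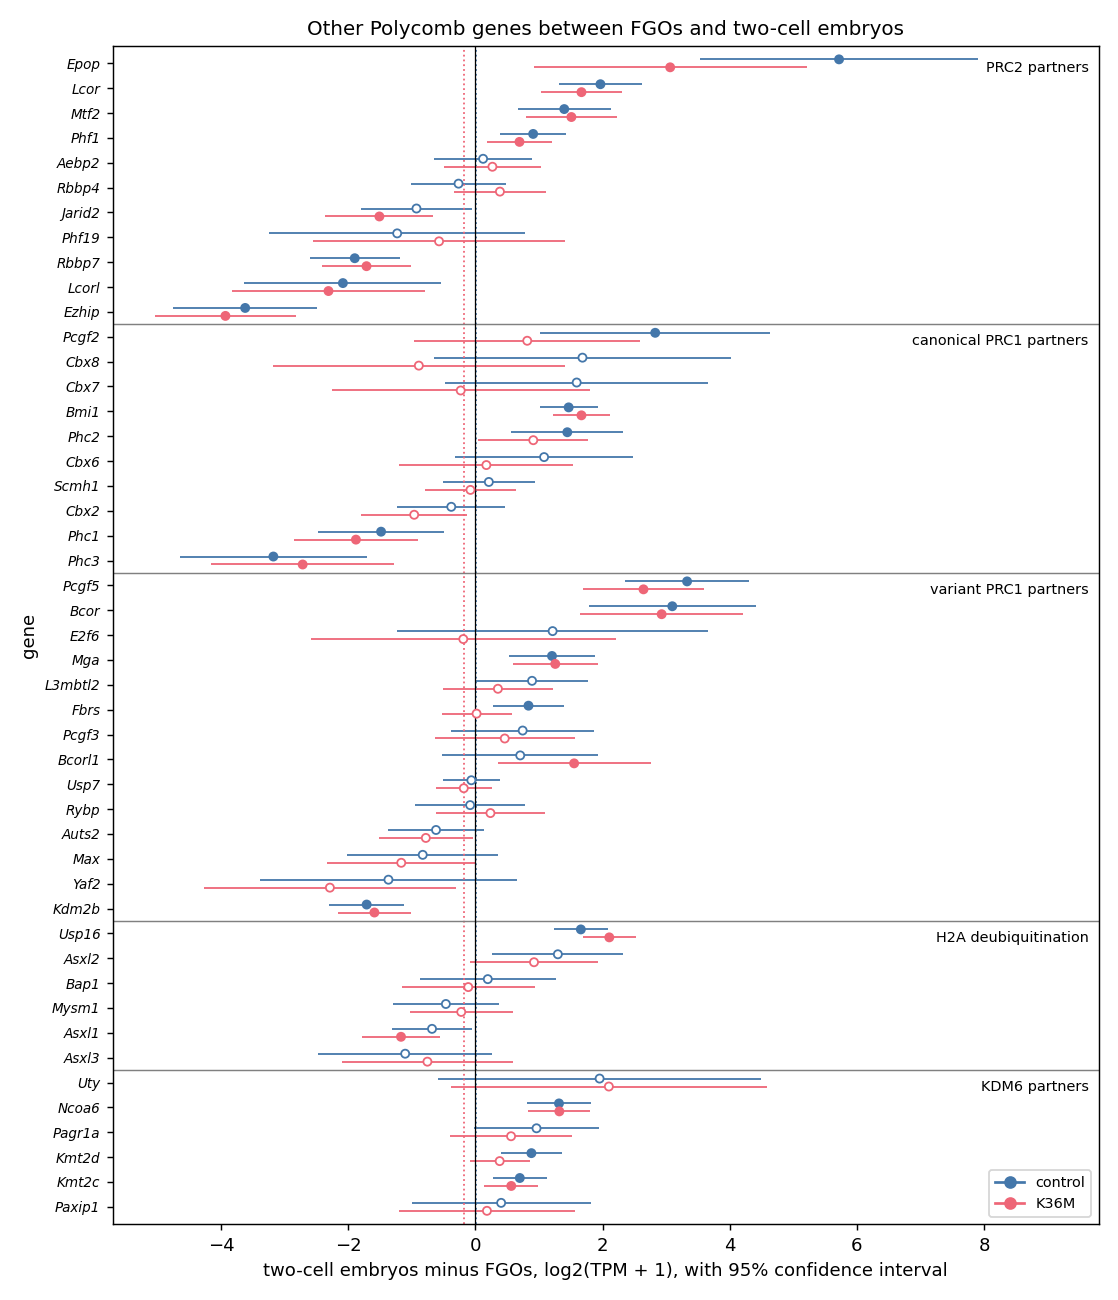
Difference of two-cell embryos minus FGOs in log2(TPM + 1) on the x axis for 47 other Polycomb genes on the y axis, in 5 groups, in control and K36M material, with the 95% confidence interval as a line, filled points for an adjusted p under 0.05 and dotted lines at the median of all genes tested. Ezhip and Phc3 lie far below 0 and Pcgf5, Bcor and Usp16 above it in both backgrounds.

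Known targets of H3K27me3 were read last. Of 6 genes whose imprinting rests on maternal H3K27me3, 2 passed the level filter in FGOs and 6 in embryos, and none was called by genotype (limma, smallest adjusted p = 0.640 and 0.794 for Gab1, 0 with an unadjusted p under 0.05 at either stage). Jade1 rose between stages by 4.97 ± 0.62 in control (adjusted p = 1.46e-06) and 5.32 ± 0.60 in K36M material (adjusted p = 3.70e-07), from at most 1.59 TPM in FGOs to at least 15.7 TPM in embryos. Of 39 Hox genes, classic Polycomb targets, 5 passed the filter in FGOs and 27 in embryos, and none was called by genotype (smallest adjusted p = 0.637 and 0.603, 0 and 1 with an unadjusted p under 0.05). None of 26 was called between stages by limma (smallest adjusted p = 0.0592 in control and 0.0581 in K36M material, Hoxb13, with 3 and 2 at an unadjusted p under 0.05, beside 37.5% and 39.1% of all genes).

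Across the 21 libraries, the pair of members most alike was Kdm6a and Kdm6b (Pearson r = 0.68 of log2(TPM + 1)), and the pair most opposed was Suz12 and Pcgf1 (r = -0.68). The 21 points share stage and group, and the values are descriptions. Among 17357 other genes, the one most like each member was Znfx1 for Kdm6b (r = 0.94), Zfp759 for Kdm6a (0.93), Lonrf1 for Ezh1 (0.93), Exd1 for Pcgf1 (0.90), Elac2 for Eed (0.86), Lrrfip2 for Ezh2 (0.80), Stag1 for Rnf2 (0.80), Crhr1 for Ring1 (0.80) and Cltb for Pcgf6 (0.79). For Suz12 it was the small nucleolar RNA gene Snord22 (0.96).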

How the data were processed

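RNA was sequenced from 6 pooled FGO libraries and 16 single two-cell embryos with a stranded SMART-Seq kit. The authors trimmed the reads with Trim Galore!, mapped them with Hisat2 to mm10, took out reads of ribosomal RNA, ran featureCounts and deposited TPM values. The annotation, gene lengths and strand setting behind the TPM are not given in the sources used here, so overlapping genes and paralogues are uncertain. TPM keeps no depth, no count test was run, and a low value has no interval from counting.

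Groups came from the labels, and genotypes and ages from the study's methods. All 22 columns were mapped to a sample. Linear models of log2(TPM + 1) were made in limma 3.58.1 (R 4.3.3, lmFit, then eBayes with trend), restricted to genes whose mean TPM reached 1 over the samples in the model. P-values were adjusted by Benjamini-Hochberg and called under 0.05. The pseudocount of 1 makes folds of low genes too small. Each stage was fitted apart for genotype, and 1 model of 4 groups gave the stage contrasts and their interaction. Nothing states that replicates came from separate females, so p-values measure the spread between these samples, which may be partly technical. The fit was also run on simulated data with independent normal noise, which holds no effects shared by the genes of a library. Its error rate on these data is therefore not shown. Positions and promoters came from RefSeq on GRCm38.p6, the assembly of mm10. Python 3.11.15, pandas 2.3.3 and matplotlib 3.10.9 served for the rest.

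The alternatives were a pseudocount of 0.1, no filter, a minimum of 5, quantile normalization, median-of-ratios scaling, no trend, array weights, 1 weight per stage, the replicate number as a block, stage fits within a genotype, control two-cell replicate 4 added and each library left out. All members are named. From each other list and comparison, up to 4 called genes with the largest change are named. Where none was called, the gene with the smallest adjusted p is named, and Uty was named after its values were seen. The members and lists were chosen with earlier results of these data known. 1 gene of the canonical PRC1 list is not reported here and is left out of its counts. Other data types of the study were not analysed here.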

Additional observations from a re-analysis of the deposited data

Results flagged for a closer look

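Of 20 sets of embryo values tested (10 members in 2 groups), 3 held an embryo that stood apart from its group on the log2(TPM + 1) scale, where chance gives about 1. Eed was 68.6 TPM in control two-cell replicate 3, with the next embryo at 118 TPM. Rnf2 was 154 TPM in control two-cell replicate 7, with the next at 226 TPM. Ring1 was 3.92 TPM in K36M two-cell replicate 6, with the next at 0.478 TPM. These are 3 different embryos. FGO groups of 3 were not tested in this way.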

How the results depend on the processing

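The counts of members called in both genotype comparisons and in the interaction stayed at 0 under every alternative except 1, and the 4 calls in K36M material held under all 32. Members called in control material between stages fell from 6 to 1 without the mean-variance trend, were 7 with array weights, which added Rnf2, and ranged from 2 to 6 when libraries were left out (2 without control FGO replicate 1, 2 or 3, and 3 without K36M FGO replicate 2 or control two-cell replicate 2 or 5). In FGOs the left-out range was 0 to 1, the 1 arising without K36M FGO replicate 1. In K36M material the count went from 4 to 8 with array weights and to 8 with 1 weight per stage, beside a rise from 29.3% to 49.1% and 50.4% of all genes. Both weightings added Ezh1, Ezh2, Eed and Rnf2. With 1 weight per stage their differences were unchanged and their SEs were smaller. The SE went from 0.53 to 0.32 for Ezh1, 0.25 to 0.16 for Ezh2, 0.38 to 0.22 for Eed and 0.24 to 0.17 for Rnf2. The cause was not tested further. The Ring1 to Rnf2 ratio in K36M oocyte-derived embryos moved from -7.54 to -9.79 on the log2 scale with a pseudocount of 0.1.

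Directions that turned all belonged to differences that were not called. Ring1 in control material was -0.76 with a pseudocount of 0.1, -0.075 with array weights and -0.64 with the replicate block. Ezh1 in control material was -0.076 with quantile normalization, -0.31 with median-of-ratios scaling and -0.096 with control two-cell replicate 4 added. The Suz12 interaction was -0.12 with quantile normalization, and that of Pcgf6 was 0.029 with quantile normalization, 0.12 with median-of-ratios scaling and 0.31 with replicate 4 added. By genotype in embryos, Suz12 was 0.00057 and Pcgf6 0.049 with median-of-ratios scaling, and Pcgf6 was 0.29 with replicate 4 added.

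With single libraries left out, differences that were not called also crossed 0. By genotype in FGOs, Rnf2 ranged from -0.0081 to 0.11, Ring1 from -0.88 to 0.17, Pcgf6 from -0.070 to 0.0013 and Kdm6a from -0.10 to 0.027. By genotype in embryos, Pcgf6 ranged from -0.23 to 0.13, while Pcgf1 (-0.56 to -0.034) and Kdm6a (-0.59 to -0.25) stayed below 0. Between stages in control material, Ezh1 ranged from -0.15 to 0.25 and Ring1 from -0.35 to 0.47. Pcgf6 stayed below 0 between stages, at -0.56 to -0.23 in control and -0.57 to -0.25 in K36M material. In the interaction, Rnf2 ranged from -0.00081 to 0.18 and Pcgf6 from -0.21 to 0.16.

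Same-numbered samples deviated together with correlations of 0.015 to 0.10 in FGOs and -0.10 to 0.097 in embryos. The highest correlation of a control sample with another number was -0.012 to 0.060 in FGOs and 0.042 to 0.089 in embryos. These small values do not decide whether the replicate numbers pair the samples. With the number as a replicate block, 4 members were called in control and 4 in K36M material (22.4% and 24.2% of all genes), 0 in either genotype comparison and 0 in the interaction, and Kdm6a and Kdm6b lost their control calls (adjusted p = 0.0859 and 0.176 by limma). Over all genes, calls between stages went from 4615 to 9730 in control and from 5094 to 8527 in K36M material with array weights, and to 8383 and 8756 with 1 weight per stage. Calls by genotype in FGOs ranged from 0 to 300 with libraries left out, 300 without K36M FGO replicate 1, and in embryos reached 5 without the trend. Interaction calls reached 13 without a filter. Of the control stage calls 50.3% were higher, and 38.5% with median-of-ratios scaling. A pseudocount of 0.1 moved the median difference of all genes between stages to -0.16 in control and -0.59 in K36M material. Median-of-ratios scaling moved the median difference of all genes from 0.0017 to -0.19 in control and from -0.18 to -0.32 in K36M material between stages, and quantile normalization moved that of K36M material to 0.095 and that by genotype in embryos from -0.26 to -0.013. How many reads lie under low values such as those of Ring1 is not known here.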

Other observations

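Control two-cell replicate 4, which entered only the alternative that adds it, lay among the other 7 control embryos for 8 of 10 members. Rnf2 was above it, at 400.0 TPM against at most 288 TPM, and Pcgf6 was below it, at 20.2 TPM against at least 67.5 TPM.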
